A study of Mus musculus with 8 samples.

Results

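The immediate early transcription factors examined here were 10 genes, found by their symbols among the 24639 genes counted in each library of mouse glomerular mesangial cells (MMC): Egr1, Egr2, Egr3, Fos, Fosb, Junb, Nr4a1, Nr4a2, Klf2 and Atf3. The members were chosen by the measured rise of Nr4a1, Klf2 and Egr3 in miR-379KO over WT total RNA, so the total RNA values below are a description and carry no test. MMC were cultured from kidney glomeruli of C57BL/6J mice, either wild type (WT) or homozygous for a short CRISPR-Cas9 nickase deletion at miR-379 (miR-379KO), and were grown in RPMI medium with fetal bovine serum; the labels name no treatment. The study's methods describe UV cross-linking and sonication of the cells before AGO2 recovery. They name a stranded mRNA-seq kit for total RNA, and small RNA-seq for RNA recovered with AGO2. AGO2-IP and total RNA thus also differ in handling and library protocol. Each genotype had 2 total RNA libraries and 2 libraries of RNA recovered with an Ago2 antibody (AGO2-IP), A and B. AGO2 is the protein that holds a miRNA on its target RNA. The deletion is carried by all cells of the mouse, and the study calls A and B independent samples; no label ties the letters to an animal, a culture or a day, so the p-values below measure the spread between these samples, which may be technical.

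Immediate early genes are transcribed within minutes of a stimulus such as serum, a growth factor, stress or handling, from factors already present in the cell, and their transcripts are short-lived. The EGR proteins are zinc finger activators, FOS, FOSB and JUNB are subunits of the dimer AP-1, ATF3 is a stress-induced relative of them, NR4A1 and NR4A2 are orphan nuclear receptors, and KLF2 is a zinc finger factor best known from endothelial cells under flow. In mesangial cells EGR1 and AP-1 are well known targets of serum, growth factors and the MAP kinase ERK.

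The sequences below show what the members shared outside the expression values. The mature miR-379-5p is given first, as RNA, with its seed (bases 2 to 8) in capitals. The next 2 lines are the members' 3′-UTR stretches that hold the reverse complement of that seed, GTCTACC (capitals), and the last is the AU-rich nonamer of Fos, TTATTTATT (capitals), a known signal for rapid mRNA decay. Sequences came from RefSeq on GRCm38.p6.

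miR-379-5p, chr12:109709065-109709085, plus strand: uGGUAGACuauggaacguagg

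Egr3 3′-UTR, chr14:70080518-70080544, plus strand: actgggctgtGTCTACCcctaaactct

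Atf3 3′-UTR, chr1:191171141-191171167, minus strand: aggcagaagtGTCTACCttgataggtg

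Fos 3′-UTR, chr12:85477103-85477131, plus strand: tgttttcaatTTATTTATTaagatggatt

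GTCTACC, searched on the transcript strand, lay in the 3′-UTRs of 2 of the 10 members, Egr3 and Atf3, and in 4.05% of 19175 annotated 3′-UTRs. Nr4a1 and Klf2 had no match in theirs. The pentamer ATTTA, which lies within TTATTTATT, was present in the 3′-UTRs of 10 of 10 members and in 61.7% of all. TTATTTATT was found in Fos, and in 6.52% of all 3′-UTRs. A match is a description of letters, and no site was tested.

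Promoters were in the sequence table for 8 members, all but Egr1 and Egr3. The 250 bases before the start are printed for Nr4a1, Klf2, Fos and a start of Egr2. These are the members with the steadiest and the least steady total RNA values, and the searched member with a CArG box. Capitals mark TGACG on either strand (CGTCA where it lies on the other strand), the start of the binding site of CREB and ATF proteins; in Klf2 also a MEF2 site, in Fos also TATAAA, and in Egr2 also a CArG box, the site of serum response factor.

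Nr4a1, chr15:101266596-101266845, plus strand: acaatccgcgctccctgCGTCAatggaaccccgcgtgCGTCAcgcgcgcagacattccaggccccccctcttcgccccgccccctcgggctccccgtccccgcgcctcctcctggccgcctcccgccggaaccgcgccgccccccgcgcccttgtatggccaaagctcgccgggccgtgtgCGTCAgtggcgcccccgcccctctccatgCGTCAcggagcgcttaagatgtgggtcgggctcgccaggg

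Klf2, chr8:72318812-72319061, plus strand: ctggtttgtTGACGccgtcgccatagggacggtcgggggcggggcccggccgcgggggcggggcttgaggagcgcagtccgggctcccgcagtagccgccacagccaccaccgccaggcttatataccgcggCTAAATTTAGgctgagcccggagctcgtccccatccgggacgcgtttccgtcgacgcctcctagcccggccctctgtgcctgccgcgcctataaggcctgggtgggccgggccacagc

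Fos, chr12:85473640-85473889, plus strand: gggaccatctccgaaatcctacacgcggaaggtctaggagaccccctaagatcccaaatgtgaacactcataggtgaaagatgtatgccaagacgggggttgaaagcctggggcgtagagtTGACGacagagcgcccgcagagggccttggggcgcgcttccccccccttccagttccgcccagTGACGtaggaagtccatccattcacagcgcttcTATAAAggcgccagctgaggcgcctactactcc

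Egr2, chr10:67537680-67537929, plus strand: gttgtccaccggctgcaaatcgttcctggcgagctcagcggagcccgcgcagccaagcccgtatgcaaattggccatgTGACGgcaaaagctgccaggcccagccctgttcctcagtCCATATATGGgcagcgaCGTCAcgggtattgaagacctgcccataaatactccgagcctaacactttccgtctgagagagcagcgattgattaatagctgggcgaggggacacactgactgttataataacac

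Searched on both strands over the 250 bases before and 50 after each start, TGACG lay in the promoters of 8 of 8 members and in 20.8% of 32851 promoters. Nr4a1 and Nr4a2 each had 4 copies, and those of Nr4a1 began 233, 213, 69 and 40 bases before the start. Of the 8 members searched, the CArG box was found in Egr2 alone (1.63% of all promoters), and the MEF2 site in Klf2 and Atf3 (0.557%). Egr1, Egr3 and bases beyond these windows were not searched. Egr2 had 5 promoters and each other searched member 1, while the shares count promoters. TATAAA was present in Fos, Junb and Nr4a2 (13.6%), and CCGGAA, the core of ETS factor sites, in Egr2 and Nr4a1 (14.9%). No member window held TGACGTCA, which contains TGACG (1.79%), the EGR site GCGTGGGCG (0.612%) or the AP-1 site TGANTCA (7.81%), and nothing follows from that about the factors.

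The libraries limited these genes unequally. Total RNA libraries held 17168230 to 22660743 gene counts. AGO2-IP libraries A and B held 17095021 and 9586299 in WT, against 6545652 and 5587611 in miR-379KO. Of these AGO2-IP counts, 89.0% and 83.3% belonged to Rn45s and Lars2 in WT, and 80.0% in each miR-379KO library. Library yield and genotype thus went together in AGO2-IP, and the part of yield in the AGO2-IP differences was not tested. Mir379 was counted 0 times in each total RNA library, and 4 times in WT B and 1 time in miR-379KO A among the AGO2-IP libraries, so it could not check the labels. Of the mesangial markers, Acta2 and Vim were abundant, Pdgfrb was at 112 to 202 CPM in total RNA, Itga8 at 0.383 to 2.27 and Gata3 at 1.97 to 3.76, and Thy1 was at 3 counts or fewer in each library. Des measured 107 CPM in WT A and 790 in WT B, the libraries that also differed in the members, and its part in their values was not tested. Intervals below are 95% exact intervals for counting error only.

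EGR family. In total RNA, Egr1 measured 69.3 and 377 CPM in WT A and WT B, against 656 CPM in miR-379KO A and 379 CPM in miR-379KO B. CPM here are gene counts relative to the library size after TMM scaling. WT A stood apart at the low end, while WT B and miR-379KO B differed by 2.53 CPM; on CPM without TMM scaling the genotypes overlapped. Egr2, a relative with roles in myelination and lymphocytes, measured 11.9 and 25.4 CPM in the WT libraries A and B, against 81.5 and 31.8 in those of miR-379KO. Egr3 measured 4.47 and 12.1 CPM in WT, against 63.3 and 19.1 in miR-379KO. Both miR-379KO libraries lay above both WT libraries for Egr2 and Egr3, and miR-379KO A was far the highest. The miR-379KO minus WT differences were 1.21 ± 0.78, 1.60 ± 0.54 and 2.31 ± 0.71 (log2, SE, n = 2 against 2) for Egr1, Egr2 and Egr3. In bulk RNA, more cells expressing a gene and more RNA per cell cannot be told apart.

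AP-1 and ATF members. Fos measured 4.17 CPM in WT A and 73.6 in WT B, against 144 and 61.6 for miR-379KO A and B. Fosb measured 1.13 and 15.4 CPM in WT, against 50.1 and 12.5 in miR-379KO. Atf3 measured 3.99 and 15.8 CPM in WT, against 28.3 and 14.3 in miR-379KO. These 3 genes shared an order, miR-379KO A highest, then WT B, miR-379KO B and WT A, so the genotypes overlapped, and their log2 differences were 1.40 ± 1.18, 1.92 ± 1.18 and 1.11 ± 0.67. Junb measured 108 and 203 CPM in WT, against 295 and 229 in miR-379KO, without overlap, a log2 difference of 0.75 ± 0.35.

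NR4A members and Klf2. Nr4a1, a receptor induced by many stimuli, measured 34.6 and 40.8 CPM in WT, against 114 and 71.3 in miR-379KO. Its 2 WT libraries lay close together and both miR-379KO libraries lay above them, and the log2 difference was 1.30 ± 0.29. Nr4a2 went another way. It measured 12.3 and 4.70 CPM in WT, against 5.43 and 9.22 in miR-379KO, with WT A highest and WT B lowest, and a log2 difference of -0.22 ± 0.52. Klf2 measured 12.2 and 18.5 CPM in WT, against 31.6 and 34.2 in miR-379KO, and was the one member besides Nr4a2 for which miR-379KO B exceeded A. Its log2 difference was 1.10 ± 0.27, the smallest SE of the 10.

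**Figure D1:**
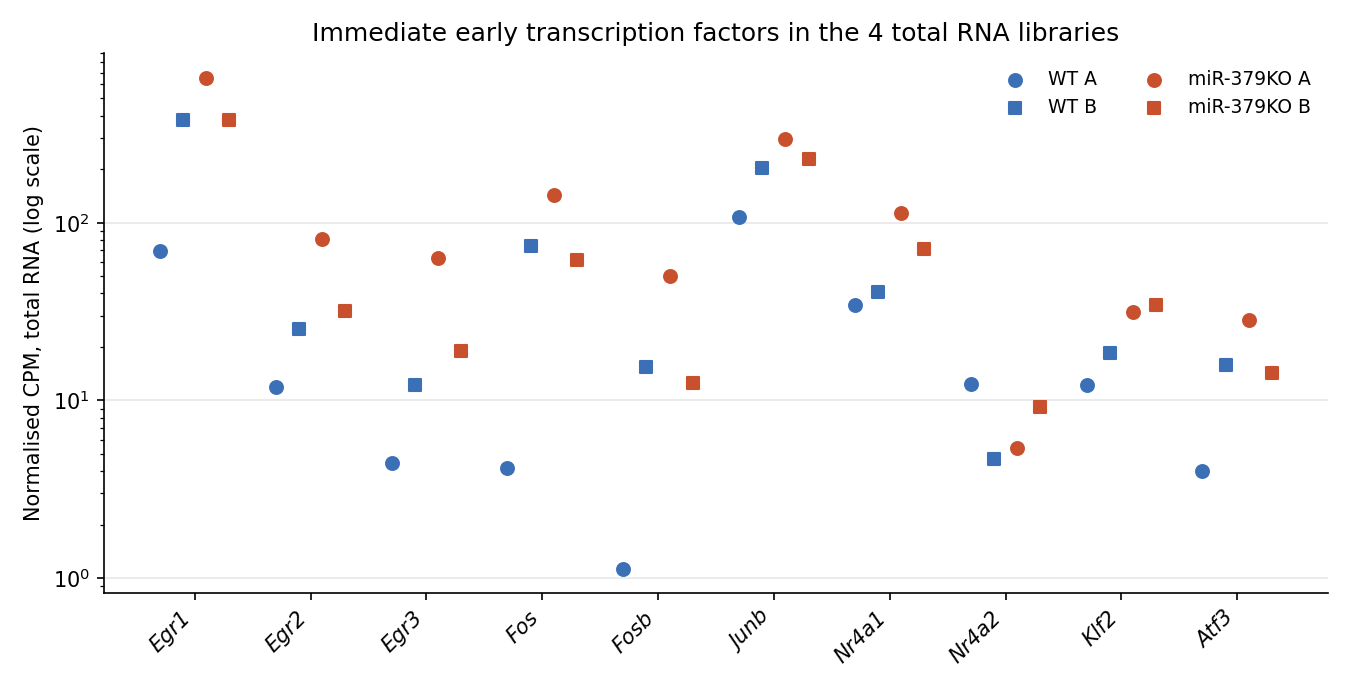
Normalised CPM of the 10 members in the 4 total RNA libraries, on a log scale (circles, A; squares, B; blue, WT; orange, miR-379KO). WT A is the lowest library for 9 of the 10, Nr4a2 being the exception, and miR-379KO A is the highest for 8.

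The higher values extended over most of the family as a difference of means, but less so over the replicates. The difference was positive for 9 of 10 members, with a median of 1.26 against -0.01 over all 12321 genes tested. Both miR-379KO libraries lay above both WT libraries for 6 of 10, Egr1, Egr2, Egr3, Junb, Nr4a1 and Klf2, where 9.89% of all genes did so and 9.07% lay the other way. No gene of the 12321 was called in this contrast by edgeR's quasi-likelihood test (0%; 91 had an unadjusted p under 0.05), and DESeq2 also called none. As the contrast chose the members, nothing is read from these counts.

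Samples of the same genotype also differed, for some members by more than the genotypes did. WT B exceeded WT A for 9 of 10 members, by a median of 1.21 on the log2 scale, where the median of all genes was 0.00. Fos was 17.6-fold higher in WT B than in WT A (interval 13.9 to 22.8), the 11th largest of 12321 such ratios. Fosb was 13.6-fold higher (8.53 to 22.9) and Egr1 5.43-fold (5.11 to 5.79). Of all genes, 1.21% exceeded 4-fold, among them these 3 members. At the other end, Nr4a1 was 1.18-fold higher and Klf2 1.51-fold, and Nr4a2 had a ratio of 0.381. In miR-379KO, A exceeded B for 8 of 10 members, by 4.0-fold for Fosb, 3.32-fold for Egr3, 2.57-fold for Egr2 and 2.33-fold for Fos, while Klf2 had a ratio of 0.923.

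Which libraries were compared therefore set the size of the difference. Against WT A, miR-379KO A was 44.2-fold higher for Fosb, 34.5-fold for Fos, 14.2-fold for Egr3 and 9.46-fold for Egr1. Against WT B, miR-379KO B had ratios of 0.814 for Fosb, 0.838 for Fos, 0.906 for Atf3 and 1.01 for Egr1. The same pair gave 1.75 for Nr4a1, 1.85 for Klf2, 1.57 for Egr3 and 1.96 for Nr4a2. Without WT A the median log2 difference of the members was 0.74, and without miR-379KO A it was also 0.74, with 10 of 10 positive in either case. Without WT B it was 2.34. Over these left-out libraries, Nr4a1 ranged from 0.94 to 1.60, Klf2 from 0.84 to 1.43 and Egr3 from 1.22 to 3.21, while Fos ranged from 0.49 to 4.62.

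**Figure D2:**
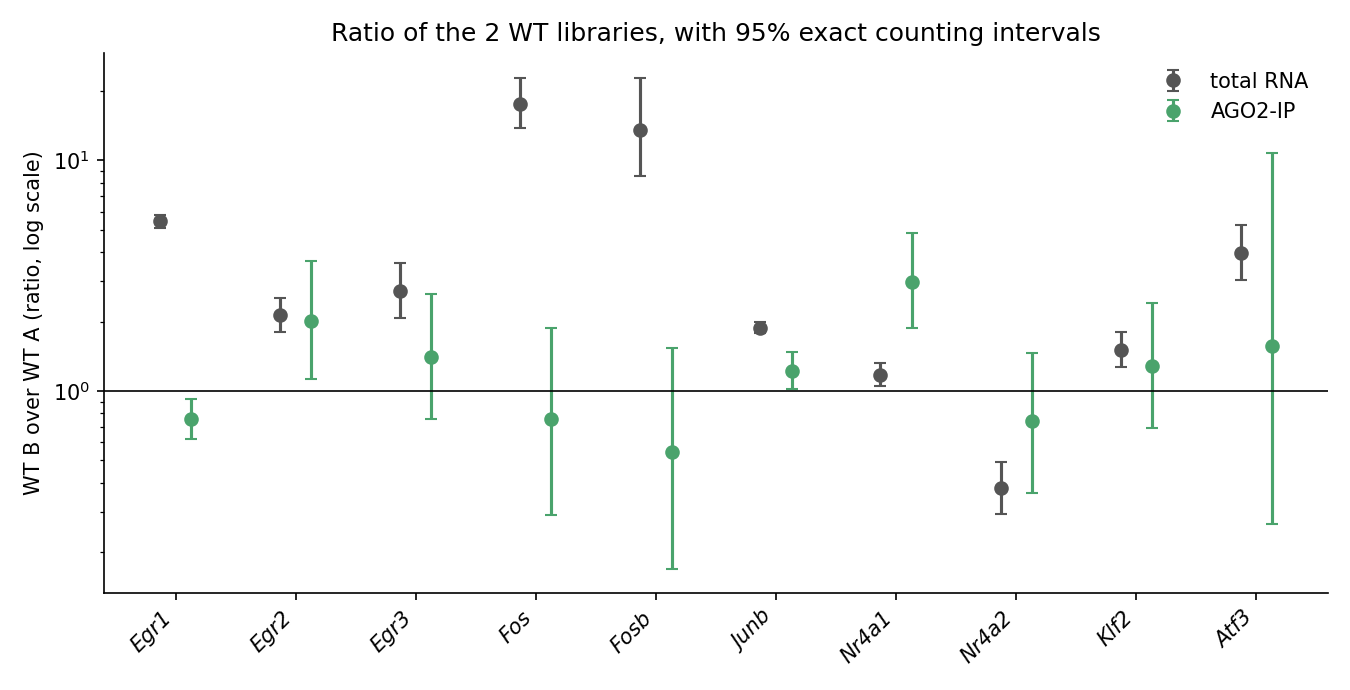
Ratio of WT B to WT A for each member in total RNA (grey) and in AGO2-IP (green), on a log scale with 95% exact counting intervals. The total RNA ratios of Fos (17.6) and Fosb (13.6) stand beside AGO2-IP ratios of 0.759 and 0.545 with wide intervals.

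Per kb of exon, which allows genes to be compared, Junb (84.4 CPM per kb) and Egr1 (72.6) were the most abundant members in WT total RNA. Fos (18.4), Nr4a1 (15.2), Klf2 (8.46), Egr2 (5.43), Atf3 (5.01), Nr4a2 (2.55), Fosb (2.19) and Egr3 (2.01) followed. In that order, Nr4a1 and Klf2 were the neighbours whose libraries did not overlap. In miR-379KO total RNA, Egr1 (168) led and Nr4a2 (2.19) came last, and Egr3 stood at 9.97 CPM per kb. There the neighbours Junb and Fos, Nr4a1 and Klf2, and Fosb and Nr4a2 did not overlap, and all other neighbours did.

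The annotation placed the members on 9 chromosomes of GRCm38.p6: Egr1 at chr18:34861207-34864956, Egr2 at chr10:67534469-67542188, Egr3 at chr14:70077317-70082613, Fos at chr12:85473890-85477274, Fosb at chr7:19302696-19310118, Junb at chr8:84976909-84978748, Klf2 at chr8:72319062-72321654, Nr4a1 at chr15:101253902-101274795, Nr4a2 at chr2:57106830-57124003 and Atf3 at chr1:191170296-191183333. Fosb, Junb, Nr4a2 and Atf3 lie on the minus strand.

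AGO2-IP asked whether the members' RNA bound to AGO2 differed between the genotypes. Of the members, 9 passed the filter on low counts, Atf3 (3, 4, 2 and 6 counts in WT A, WT B, miR-379KO A and miR-379KO B) being the exception. Egr1 measured 25.5 and 19.2 CPM in WT, against 9.23 and 9.79 in miR-379KO. The genotypes did not overlap, and Egr1 fell 2.35-fold (log2 -1.23 ± 0.23, adjusted p = 0.000763, edgeR's quasi-likelihood test, Benjamini-Hochberg). Junb measured 22.5 and 27.6 CPM in WT, against 14.4 and 10.0 in miR-379KO. It fell 2.05-fold without overlap (log2 -1.03 ± 0.24, adjusted p = 0.00286 by the same test). Over the alternatives, the adjusted p of Egr1 ranged from 2.25e-05 to 0.345 and that of Junb from 0.000332 to 0.279.

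Nr4a1 was counted 27, 68, 24 and 21 times in WT A, WT B, miR-379KO A and miR-379KO B AGO2-IP. WT B alone stood high, 2.97-fold over WT A (interval 1.88 to 4.83), and the log2 difference of -0.90 ± 0.44 did not pass (edgeR adjusted p = 0.130, 0.000362 to 0.986 over the alternatives, the lowest without WT A and the highest without WT B). Klf2 had 22, 24, 21 and 16 counts, and Egr3 21, 25, 23 and 20. Neither separated the genotypes: the log2 differences were -0.11 ± 0.37 and 0.10 ± 0.36. The other 4 tested members, Egr2, Fos, Fosb and Nr4a2, lay between -0.32 and 0.02, with 6 to 34 counts a library. Counts this low leave wide errors, and a p that misses the threshold does not show that the genotypes were alike.

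The 2 called members, both lower, compare with 9.43% of the 13505 genes tested that were called lower and 21.4% called higher. Abundant transcripts were called lower more often: 11.8%, 14.4% and 35.0% of tested genes with a mean of at least 1, 10 and 100 CPM in total RNA, and Egr1 and Junb were the members above 100 CPM on average. Without overlap, 32.2% of all genes lay lower and 36.1% higher in miR-379KO AGO2-IP. The median difference of the 9 tested members was -0.11, against -0.01 over all genes.

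**Figure D3:**
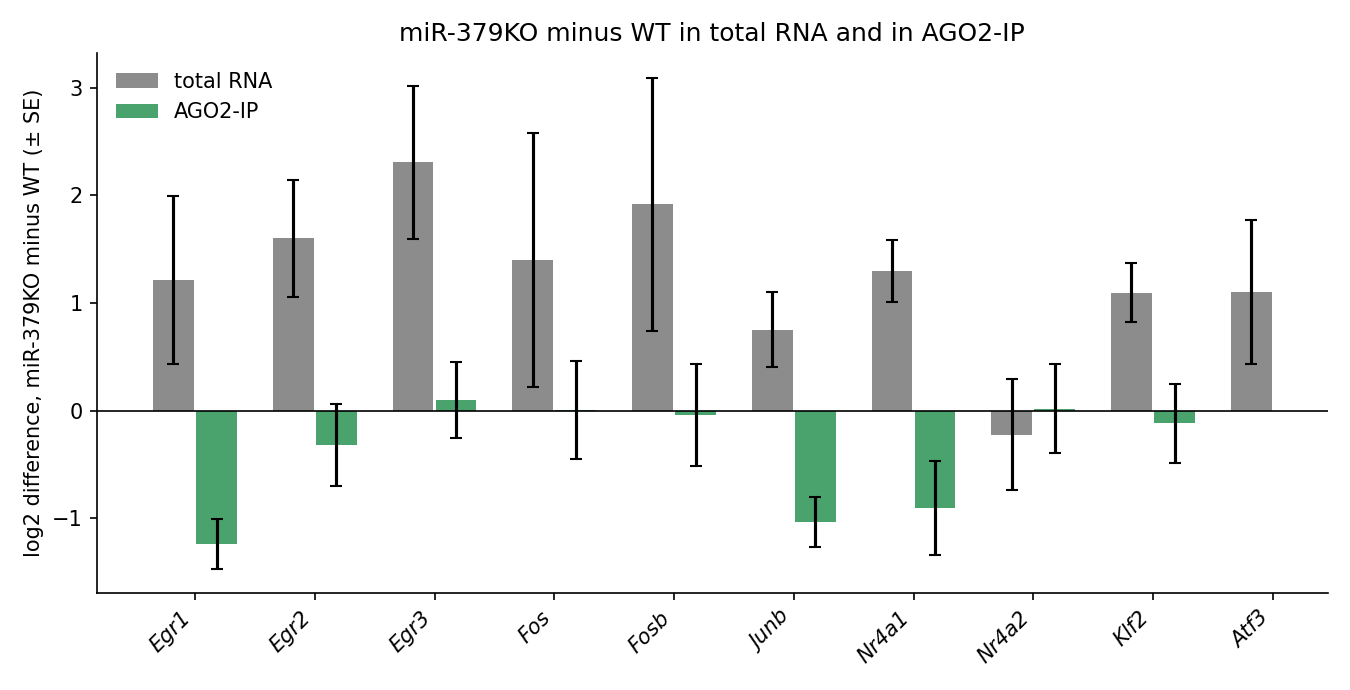
The log2 difference miR-379KO minus WT (bars, ± SE, n = 2 against 2) for each member in total RNA (grey) and AGO2-IP (green, Atf3 not tested). Total RNA differences are above 0 for 9 members, while in AGO2-IP Egr1 (-1.23) and Junb (-1.03) lie below 0 and most others near it.

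The ratio of the 2 WT libraries is given for both assays side by side; nothing in the labels says that a letter marks the same culture in both, and the intervals cover counting error only. Egr1 had a WT B over WT A ratio of 0.755 there (0.618 to 0.920), against 5.43 in total RNA. For Fos the AGO2-IP ratio was 0.759 (0.290 to 1.88), against 17.6 in total RNA. Egr2 had like ratios in both (2.01 and 2.14). For Nr4a1 it was 2.97 in AGO2-IP against 1.18 in total RNA.

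How far the members stood above background in AGO2-IP differed between the genotypes, as did the background itself. The 4629 protein-coding autosomal genes that were silent in total RNA held 1.41 and 0.937 counts per kb in the WT AGO2-IP libraries, against 3.21 and 3.66 in the miR-379KO ones (A first). Members stood at a median of 4.91 and 8.51 times this level in WT, and at 1.77 and 1.62 times in miR-379KO. The level of silent genes was higher in miR-379KO, so equal counts gave a lower ratio there. Klf2, with 22, 24, 21 and 16 counts, stood at 8.61 and 14.1 times in WT and at 3.60 and 2.41 in miR-379KO. Other expressed genes were not set beside the members, so the lower ratios cannot be called particular to them. In each miR-379KO library 2 members were at 5 times or more, Egr1 (8.01 and 6.85) and Junb (20.8 and 11.7), and 6 were under 2 times. Egr3 in miR-379KO was within the range of silent genes, of which 17.5% and 28.7% had as many counts per kb. Fosb (0.742 and 0.507) and Atf3 (0.315 and 0.830) lay below the mean of silent genes in both miR-379KO libraries. A level near background cannot show what fraction of a transcript was bound, and the part of this background in the differences above was not tested. With it subtracted, the log2 differences without a test were -1.42 for Egr1, -1.53 for Egr2, -1.16 for Egr3, -1.47 for Fos, -1.12 for Junb, -1.54 for Nr4a1, -1.23 for Nr4a2 and -0.59 for Klf2. Egr3, Fos and Nr4a2, near 0 before the subtraction, had values below 0 after it. These rest on few counts and carry no error. In miR-379KO A and B, Fos had 9 and 11 counts over a background of 6.77 and 7.72. Nr4a2 had 12 and 22 over 10.7 and 12.2, and Egr3 23 and 20 over 13.3 and 15.1. Fosb and Atf3 have no value, as their counts lay below the background in both miR-379KO libraries. The same subtraction was not made for other expressed genes.

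**Figure D4:**
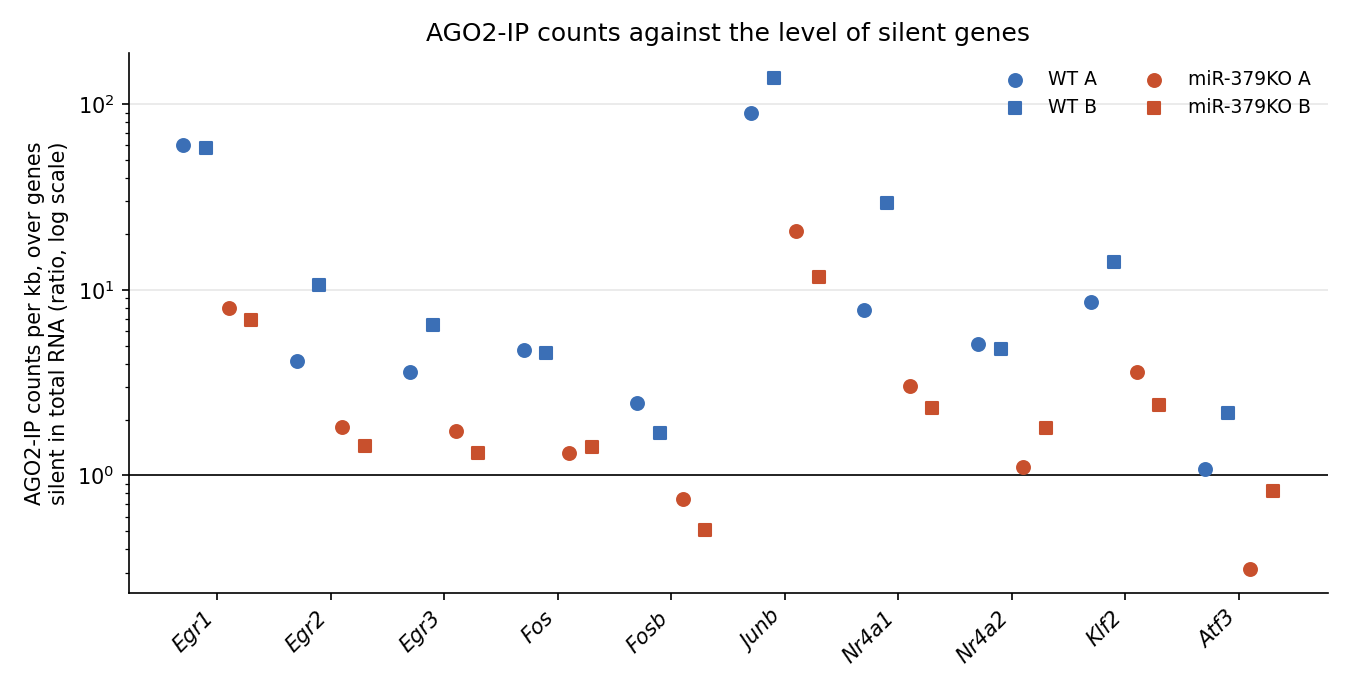
Counts per kb in each AGO2-IP library over the mean of genes silent in total RNA, as a ratio on a log scale (line at 1; circles, A; squares, B; blue, WT; orange, miR-379KO). WT points lie above miR-379KO points for all 10 members, and 6 members in each miR-379KO library lie under 2. The mean of silent genes was itself higher in miR-379KO, and other expressed genes are not shown.

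AGO2-IP was also set against total RNA within each genotype, a comparison that shares the total RNA libraries that chose the members. Handling and library protocol change with the assay in it, and their part was not tested. In WT, no member was called at an edgeR adjusted p under 0.05 and at least 2-fold, where 7.33% of 17429 genes were called lower and 35.7% higher. No member had an unadjusted p under 0.05 there, and DESeq2 called Atf3 lower. The median of the members was -0.30, against 0.49 for all genes. In miR-379KO the median was -2.54, against 0.47. The members were chosen for high values in miR-379KO total RNA, the denominator of this ratio, so a low ratio follows in part from that choice, and the values are given as a description with nothing read from them. The log2 differences were -3.49 ± 0.98 for Egr1, -2.34 ± 0.72 for Egr2, -1.71 ± 0.85 for Egr3, -4.12 ± 1.84 for Fos, -2.74 ± 1.73 for Fosb and -2.14 ± 0.35 for Junb. They were -2.80 ± 0.47 for Nr4a1, -1.58 ± 0.34 for Klf2, -3.17 ± 1.0 for Atf3 and 0.48 ± 0.47 for Nr4a2. By edgeR 6 members were past the thresholds, all but Egr3, Fos, Fosb and Nr4a2, where 19.3% of all genes were lower and 41.6% higher, and by DESeq2 Egr3, Fos and Fosb were past them too. With a replicate block, Egr1, Egr2 and Atf3 were not. The choice of members bears on these miR-379KO calls as well, so nothing is read from them or from the shares beside them.

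Other immediate early genes were set beside the members as a description. Their list was chosen with earlier results of these data known, and the total RNA contrast is the one that chose the members. Nothing is therefore read from its total RNA counts. The list of 28 genes had a median total RNA difference of 0.43, against -0.01 over all genes. Of the 28, 24 were positive and 11 lay without overlap above WT (9.89% of all genes). In the list 2 had an unadjusted p under 0.05 by edgeR and none was called. Ier2, a nuclear regulator, measured 20.3 CPM in WT A and 114 in WT B, against 204 and 154 in miR-379KO. Cyr61, a secreted matrix protein, measured 566 and 999 CPM in WT, against 1552 and 1161 in miR-379KO. Dusp1, a phosphatase that switches off MAP kinases, measured 88.4 and 219 CPM in WT, against 300.0 and 194 in miR-379KO, where WT B lay above miR-379KO B. WT B exceeded WT A for 20 of the 28.

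In AGO2-IP, 13 of those 28 genes were called lower and none higher, against 9.43% of all genes lower, with a median of -0.60. Among tested genes with a mean of at least 10 and 100 CPM in total RNA, 14.4% and 35.0% were called lower. The list holds genes above and below 100 CPM, and no share matched to its levels was computed. Gadd45g, a stress sensor, fell by 1.08 on the log2 scale (edgeR adjusted p = 0.00265), and Cyr61 by 1.02 (edgeR adjusted p = 0.00838). Btg2, an antiproliferative factor, fell by 0.87 and Dusp1 by 0.95 (edgeR adjusted p = 0.00728 and 0.00924). In total RNA these 4 genes measured 77.7 to 1552 CPM.

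For the partners and relatives below, the share of all genes called lower in AGO2-IP was 9.43%, and 14.4% among genes with at least 10 CPM in total RNA. Of 10 AP-1 partners tested in total RNA, 6 were positive with a median of 0.08. Jun, the main partner of FOS, measured 58.1 and 89.2 CPM in WT, against 140 and 78.1 in miR-379KO, so the genotypes overlapped. In AGO2-IP 2 of 10 were called lower, Jun (log2 -1.004, edgeR adjusted p = 0.00315) and Atf4 (-0.79, 0.0165), and none higher. Of 11 EGR, NR4A and KLF relatives tested, 4 were positive in total RNA with a median of -0.15, and 2 were called lower in AGO2-IP, Klf7 and the EGR corepressor Nab2 (-0.78, 0.0162). Of 20 upstream factors tested in total RNA, 8 were positive, with a median of -0.09. Srf, whose product binds the CArG box, measured 92.6 and 89.5 CPM in WT, against 105 and 100.6 in miR-379KO. In AGO2-IP the SRF cofactor Mkl1 and Mef2d were called lower, and Mef2c, at 3 to 6 counts in the total RNA libraries, higher.

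**Figure D5:**
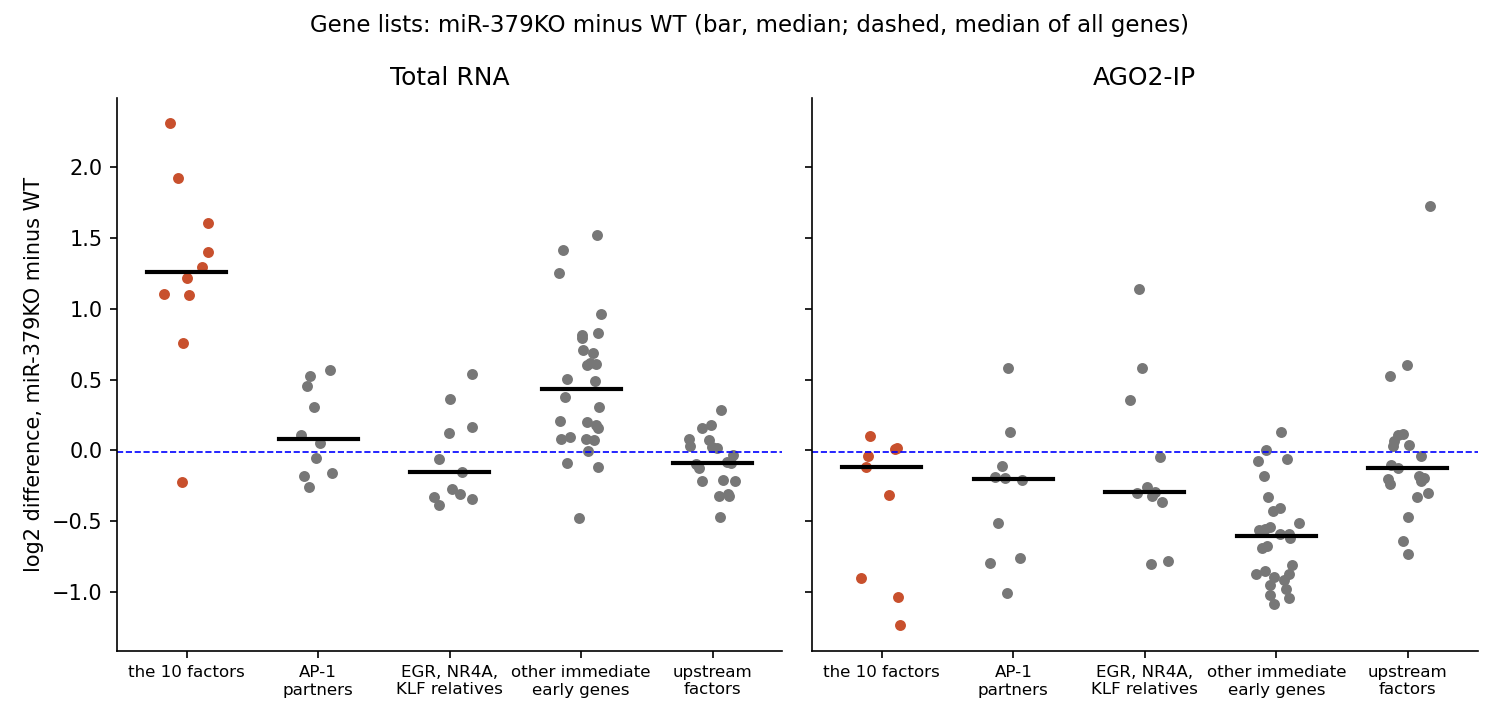
The log2 difference miR-379KO minus WT of each gene in 5 lists, in total RNA (left) and AGO2-IP (right); bars are medians and the dashed line is the median of all genes. In total RNA the 10 factors (1.26) and the other immediate early genes (0.43) lie above the line, and in AGO2-IP the other immediate early genes have a median of -0.60.

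The genes whose 4 total RNA values most resembled a member's were named by the root mean square difference of centred log2 CPM, among 10753 genes. For Nr4a1 these were Upk1b (0.0855), a uroplakin, and the MAP kinase phosphatases Dusp5 (0.0961) and Dusp6 (0.191). Dusp5 measured 19.1 and 27.4 CPM in WT, against 70.7 and 43.4 in miR-379KO. For Klf2 they were Ptgs2 (0.170), the inducible cyclooxygenase, Adm (0.173), a vasodilator peptide, and Phlda1 (0.181). For Egr3 they were Arc (0.346), Zfp36 (0.470), which binds AU-rich mRNA, and Ier2 (0.622), so its profile had no close match.

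Klf2 is also an endothelial gene, so markers of other kidney cells were set beside it. No endothelial marker of 8 passed the filter in total RNA, and 7 were under 10 counts in every total RNA library. The summed level of the 8 ran from 0.766 to 0.835 CPM in WT. It was 2.35 CPM in miR-379KO A and 0.117 in miR-379KO B. Their part in the Klf2 values was not tested. Pecam1 and Cdh5, which define endothelium, were at 0 in WT A, WT B and miR-379KO B, and at 6 and 4 counts in miR-379KO A. Emcn, the endothelial marker not under 10 counts, had 8, 5, 36 and 1 counts in WT A, WT B, miR-379KO A and miR-379KO B. Podocyte markers summed to 244 to 634 CPM in WT and 329 to 573 in miR-379KO, carried by Synpo and Wt1. Leukocyte markers (6) summed to 1.85 to 5.14 CPM in WT and 1.88 to 4.91 in miR-379KO. Tubule markers (6, of which Slc34a1 and Umod were at 0) summed to 5.90 CPM in WT A and 51.5 in WT B, against 29.3 and 44.6 for miR-379KO A and B. These markers did not move together. In WT A, WT B, miR-379KO A and miR-379KO B, Lrp2 measured 1.43, 25.8, 13.0 and 7.46 CPM and Cdh16 0.537, 20.1, 13.2 and 1.23. Aqp1 measured 3.93, 5.47, 3.09 and 35.9. Lrp2 and Cdh16 were thus lowest in WT A, as were 9 members, and Aqp1 was lowest in miR-379KO A. Their part in the members' differences was not tested.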

How the data were processed

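Gene counts per library were deposited by the authors, 1 table for each of 8 samples. According to the paper's methods and the submitters' processing notes, reads were aligned to mm10 with TopHat and counted over RefSeq genes with HTSeq 0.6.0, with strand. Rows that name no gene were left out of library sizes; the rows of genes held 76.2% to 80.2% of the listed reads in total RNA and 11.1% to 26.9% in AGO2-IP.

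Genes were filtered (filterByExpr, minimum count 10), scaled by TMM and fitted with the quasi-likelihood test of edgeR 4.0.16 in R 4.3.3, without a block; p-values were adjusted over all genes (Benjamini-Hochberg, threshold 0.05). Total RNA and AGO2-IP were fitted apart. AGO2-IP against total RNA used all 8 libraries and also required 2-fold. The fit was also run on simulated counts of preset spread. That spread was not taken from these replicates, so the run does not show how the fit performs on them. DESeq2 1.42.0 and other settings were alternatives. Of the 24639 genes, 98.8% matched the annotation. The main fits did not pair samples by the letters A and B.

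Members and lists were chosen with earlier results of these data known. Named genes were all members and, per list, the 4 most abundant per kb in WT total RNA and up to 4 called in AGO2-IP in each direction; Ier2 and Dusp5 come from the likeness rule. Cell type markers were named as defining genes or for their level. Not every marker of these lists is reported here.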

Additional observations from a re-analysis of the deposited data

Results flagged for a closer look

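Egr1 and Junb were singled out because both miR-379KO libraries lay above both WT libraries in total RNA and below both in AGO2-IP. The miR-379KO minus WT difference in AGO2-IP, less that in total RNA, was -2.45 (log2) for Egr1 and -1.79 for Junb. The difference between the assays was not tested, and the total RNA side of it chose the members. On CPM without TMM scaling the genotypes overlap for Egr1 in total RNA and for Junb in AGO2-IP.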

How the results depend on the processing

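The crossed pairing of the total RNA letters, chosen after seeing the data because same-letter deviations correlated at -0.11, gave 1 call in place of 0. For AGO2-IP that correlation was 0.04. These correlations do not show whether samples of a letter were handled together, which the labels do not say. A replicate block gave 3853 calls in AGO2-IP in place of 4158 and 0 in total RNA. AGO2-IP calls were 838 with DESeq2 (524 higher, 314 lower), 688 with all 8 libraries in one fit (377 and 311), and 918 to 3331 with a library left out, lowest without miR-379KO B and 2359 without WT B; factors from genes expressed in total RNA gave 3917 calls, 3365 higher and 552 lower. The call count for miR-379KO AGO2-IP against total RNA was 16163 without the filter, in place of 10627 (8267 to 11564 with a library left out); for WT it was 7507 (5401 to 8908), and 10977 without the filter.

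Of the called members, Egr1 in AGO2-IP lost its call in the fit of all 8 libraries (log2 -1.38, adjusted p = 0.345). Junb lost it in that fit (-1.18, 0.0588), with the offset for GC content and exon length (-0.42, 0.198), with block and offset (-0.41, 0.279) and without miR-379KO B (-0.82, 0.0842), so the difference itself shrank with the offset. Nr4a1 passed without the filter (0.00695) and without WT A. Uncalled members changed sign in AGO2-IP (log2) as follows. Egr2 became 0.0220 with block and offset. Egr3 became -0.11 without the filter and -0.0521 in the fit of all 8. Fos became -0.0105 with DESeq2, -0.0237 with RLE, -0.20 without the filter and -0.14 in the fit of all 8. Fosb became 0.38 with the offset, 0.41 with block and offset and 0.13 with expressed-gene factors. Klf2 became 0.50, 0.50 and 0.0557 under the same 3. Nr4a2 became -0.0123 with RLE, -0.20 without the filter, -0.0020 with the replicate block and -0.12 in the fit of all 8. With a library left out, the ranges were -0.82 to 0.20 for Egr2, -0.20 to 0.31 for Egr3, -0.22 to 0.17 for Fos, -1.58 to 0.0130 for Nr4a1, -0.56 to 0.37 for Nr4a2 and -0.36 to 0.0253 for Klf2; Fosb (-0.23 to 0.0621) had values only without a miR-379KO library, since it did not pass the filter otherwise. Subtracting the background moved 5 of 8 members' values by more than the replicate spread.

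In WT AGO2-IP against total RNA, Egr2, Junb and Klf2 became 0.23, 0.24 and 0.26 with the offset, and 0.23, 0.24 and 0.26 with block and offset. With a library left out, the ranges were -1.72 to 0.94 for Egr1, -1.08 to 0.54 for Egr2, -3.57 to 0.79 for Fos, -1.59 to 2.38 for Fosb, -0.66 to 0.47 for Junb, -1.66 to 0.00059 for Nr4a1, -0.0184 to 1.15 for Nr4a2 and -0.66 to 0.25 for Klf2. In miR-379KO the range for Nr4a2 was -0.0818 to 0.89, and the calls of Egr1, Egr2, Klf2 and Atf3 were lost in 5, 5, 2 and 4 of 15 alternatives, among them the replicate block for Egr1 (adjusted p = 0.0700), Egr2 (0.107) and Atf3 (0.0565); DESeq2 added Egr3 (0.0353), Fos (0.00533) and Fosb (0.0191). The cause of these changes was not tested. As the miR-379KO total RNA libraries also chose the members, nothing is read from the miR-379KO calls against total RNA. Of 130 total RNA values of members under alternatives, 8 moved by more than the spread between replicates. In AGO2-IP, 8 of the 10 members had under 70 counts in every library there and Atf3 could not be tested.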
